A study of Homo sapiens with 8 samples.

Results

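The comparison described here is HSF2 overexpression in TGF-β1-treated cells of HS578T, a human breast carcinoma cell line whose polyadenylated RNA was sequenced. It rests on 4 of the 8 libraries of the study, chosen by their titles. The 2 libraries titled HSF2oe TGFb came from cells transfected with 25 µg of a plasmid encoding HSF2, and the 2 titled Mock TGFb from cells transfected with 25 µg of a plasmid for green fluorescent protein (GFP). All 4 cultures received 10 ng/ml TGF-β1 in assay medium for 24 h, starting a day after transfection. The other 4 libraries carried the same plasmids and stood for 24 h in assay medium alone, with 0 ng/ml TGF-β1 (HSF2oe Control and Mock Control, 2 libraries each). They entered the fit and serve for one comparison near the end. Each group has 2 biological replicates according to the design text, which does not say whether they came from separate cultures, so p-values measure the spread between these libraries. A treatment field in the labels lists DMSO for the Mock libraries and TGFb1 for the HSF2oe libraries, against the titles and the design text, and the groups follow the titles. The plasmid's promoter and the share of cells transfected are not given in the sources used here, so each value is an average over transfected and untransfected cells. In such bulk samples fewer cells of a type and less RNA per cell cannot be told apart.

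HSF2 belongs to the heat shock factors, which bind as trimers to heat shock elements, arrays of inverted GAA units in front of chaperone genes. HSF1 is the family member that drives the response to heat, while HSF2 is best known from development and germ cells and can form mixed trimers with HSF1. TGF-β1 binds paired receptor kinases that phosphorylate SMAD2 and SMAD3. With SMAD4 these enter the nucleus, where they raise genes for matrix, protease inhibitors and feedback regulators, and in many epithelial cells they slow the cell cycle. Cells that undergo epithelial to mesenchymal transition lose E-cadherin and gain N-cadherin, fibronectin and vimentin. The study was set up, by its title, around the switch of breast cancer cells between dividing and invading.

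Counts summed over genes came to 32934381 and 23232467 in the HSF2oe TGFb libraries, against 17427645 and 23726768 in the Mock TGFb libraries. A count of 3, the limit that a count of 0 allows, was 0.0934 and 0.128 CPM (the normalised count, scaled to library size) in HSF2oe TGFb and 0.195 and 0.148 CPM in Mock TGFb, covering counting error only. TMM scaling factors were 0.976 and 1.01 in HSF2oe TGFb and 0.882 and 0.857 in Mock TGFb. The 50 most abundant genes of a library took 25.4% and 23.3% of the counts in HSF2oe TGFb and 27.9% and 28.6% in Mock TGFb. Mitochondrial genes took 4.74% and 2.86% in HSF2oe TGFb and 4.29% and 3.71% in Mock TGFb. The labels call the cells epithelial. Of 11 epithelial and luminal markers, PGR (the progesterone receptor) had a count of 0 in all 4 libraries, EPCAM (an epithelial surface protein) was at or below 0.0492 CPM, and CDH1 (E-cadherin) at or below 1.17 CPM. The keratins KRT18 and KRT14 were present, as were another keratin at 15.6 to 23.2 CPM and GATA3 at 7.58 to 13.8 CPM. The 11 markers summed to 564 and 561 CPM in HSF2oe TGFb and 841 and 718 CPM in Mock TGFb. The mesenchymal markers VIM, FN1 and SPARC, the highest of 7 listed, were at 3489 CPM or above in all 4. The lowest of the 7 was at 11.6 to 14 CPM. Together the 7 summed to 51946 and 49359 CPM in HSF2oe TGFb and 64526 and 72623 CPM in Mock TGFb. Summed over 12 markers of blood, endothelial, liver and muscle cells, the level was 2.77 and 3.67 CPM in HSF2oe TGFb and 4.43 and 6.25 CPM in Mock TGFb, with CD3E, LYZ and HBB among those at 0 in all 4. Known TGF-β and SMAD target genes had a median log2 change of 1.05 with TGF-β1 over without it in HSF2oe cells and of 1.14 in Mock cells, which goes with the titles and not with the treatment field.

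HSF2 (ENSG00000025156.13, plus strand of chromosome 6 from 122399551 to 122433119, GRCh38) had 780.3 and 489 CPM in HSF2oe TGFb cells, against 5.4 and 5.76 CPM in Mock TGFb cells. The groups lay far apart, and the first HSF2oe library held more HSF2 than the second. The log2 change was 6.83 ± 0.28 (± standard error here and below), a 113-fold difference (adjusted p = 4.48e-08, quasi-likelihood test of edgeR, Benjamini-Hochberg adjustment over 16008 genes, as for every adjusted p below). Plasmid and endogenous transcripts are counted together. HSF1 had 186 and 198 CPM in HSF2oe TGFb cells and 199.5 and 187 CPM in Mock TGFb cells, groups that overlapped, and its log2 difference of -0.01 ± 0.09 did not pass the test (adjusted p = 0.978). Of 15 measured heat shock factors and partner genes, HSF2 and ATF1, a transcription factor, rose and HSF4 fell, or 7 rose and 1 fell under library totals alone. ATF1 rose by 0.44 ± 0.15, a call lost with RLE size factors, by DESeq2, with only the 4 libraries compared, without HSF2oe TGFb 1, without HSF2oe TGFb 2, without Mock TGFb 2, without HSF2oe control 1 or without HSF2oe control 2 (adjusted p = 0.0511 to 0.301). HSF4, a heat shock factor known from the eye lens, fell by 1.17 on the log2 scale, a call lost without HSF2oe TGFb 1 (adjusted p = 0.0586) or without Mock TGFb 1 (adjusted p = 0.0507), and shares 27.1% of its exonic bases with another gene. The median of the list was 0.10, beside -0.003 over all genes tested.

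In all, 3449 of the 16008 genes tested, or 21.5%, differed between HSF2oe TGFb and Mock TGFb cells. Of all genes tested, 9.6% rose (1537) and 11.9% fell (1912), and these shares are the background for every count below. Changes of at least 1 on the log2 scale were found for 244 genes that rose and 455 that fell. The 2 groups of libraries did not overlap in 9579 genes, or 59.8% of all genes tested, and in all 3449 called genes. That share is the background for statements on separate groups below. The count depended on single libraries: 1620 genes passed without HSF2oe TGFb 1 and 1483 without Mock TGFb 2. It also depended on scaling in its balance. Rises made up 44.6% of the calls with TMM and 76.7% (3526 rises, 1073 falls) under library totals alone, where the median of all genes moved to 0.19. Changes are given relative to the TMM scale, on which that median is near 0.

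**Figure D1:**
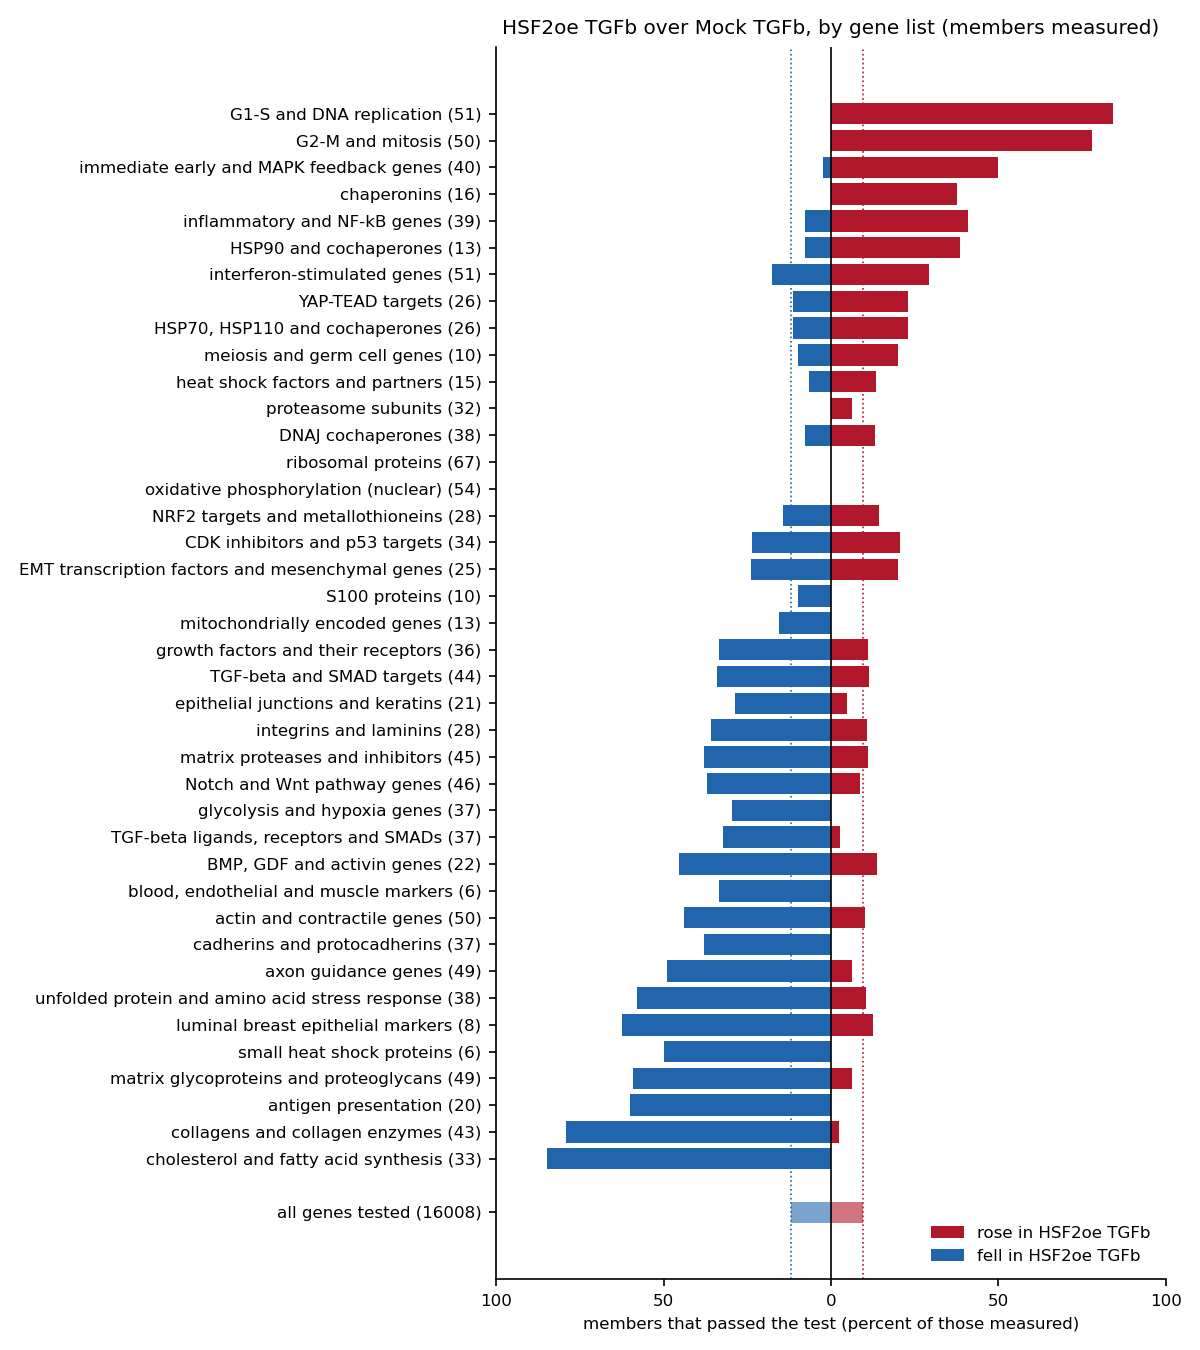
Share of the measured members of each gene list that passed the test in HSF2oe TGFb over Mock TGFb (percent, edgeR, adjusted p below 0.05): rises to the right in red, falls to the left in blue, with the share of all 16008 genes in the lowest row. Rises reach 84.3% among G1-S genes and falls 84.8% among cholesterol and fatty acid genes, against 9.6% and 11.9% of all genes.

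Some chaperones of the cytosol and the mitochondrial matrix rose in HSF2oe TGFb cells, while HYOU1, HSPA5 and HSP90B1 of the endoplasmic reticulum fell. HSPA6 (ENSG00000173110.8, plus strand of chromosome 1 from 161524540 to 161526894), a strictly inducible HSP70, had 4.11 and 3.58 CPM in HSF2oe TGFb cells, against 0.977 and 0.738 CPM in Mock TGFb cells. Both HSF2oe libraries lay above both Mock libraries, at a low level throughout, and the log2 rise was 2.18 ± 0.33 (adjusted p = 6.76e-04). HSPA1A, the main inducible HSP70, had 107 and 112 CPM in HSF2oe TGFb and 70.6 and 83 CPM in Mock TGFb cells, a rise of 0.51 ± 0.11 (adjusted p = 0.00451). Its near-identical copy HSPA1B changed by 0.53 ± 0.13, a call lost without HSF2oe TGFb 1 (adjusted p = 0.0604) or without Mock TGFb 2 (adjusted p = 0.136), and since reads can fit both, the split between them is uncertain. HSPH1, a nucleotide exchange factor for HSP70, had 176 and 175 CPM against 122 and 129 CPM and rose by 0.48 ± 0.10. HSPA8, the constitutive HSP70, had 2225 and 1930.5 CPM against 1619 and 1412 CPM and rose by 0.46 ± 0.12, a call lost without HSF2oe TGFb 1 (adjusted p = 0.125) or without Mock TGFb 2 (adjusted p = 0.151). In total 6 of 26 measured HSP70 and HSP110 family genes and cochaperones rose and 3 fell, with a median of 0.23. Without HSF2oe TGFb 1, 3 rose, without Mock TGFb 2, 3 rose and 1 fell, and without HSF2oe TGFb 2, 1 fell. Scaling by library totals alone gave 15 rises and 1 fall. HYOU1, an HSP110 of the endoplasmic reticulum, fell to 836 and 690.5 CPM in HSF2oe TGFb cells, against 1184 and 1121 CPM in Mock TGFb cells (log2 -0.59 ± 0.12, adjusted p = 0.00408), and HSPA5, the chaperone BiP of the same compartment, changed by -0.49 ± 0.14, a call that was lost under library totals alone, without HSF2oe TGFb 2, without Mock TGFb 1 or without Mock TGFb 2 (adjusted p = 0.0884 to 0.146).

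Among 13 HSP90 genes and cochaperones 5 rose and 1 fell, with a median of 0.21. HSP90AA1, the inducible cytosolic HSP90, had 1119 and 1155 CPM in HSF2oe TGFb and 747 and 793 CPM in Mock TGFb cells, a rise of 0.56 ± 0.10 (adjusted p = 0.00214). Its call held under every alternative tried, but 1 rise was left in the list without HSF2oe TGFb 1, HSF2oe TGFb 2 or Mock TGFb 2, and 3 without Mock TGFb 1. The cochaperone FKBP4 rose by 0.40 ± 0.11, a call lost without HSF2oe TGFb 1, without HSF2oe TGFb 2 or without Mock TGFb 2 (adjusted p = 0.0579 to 0.188). HSP90B1, the HSP90 of the endoplasmic reticulum, changed by -0.48 ± 0.12, and that call was lost under library totals alone, without HSF2oe TGFb 2 or without Mock TGFb 2 (adjusted p = 0.0786 to 0.16). Of 16 chaperonins and prefoldins 6 rose and none fell (median 0.23), or 2 without HSF2oe TGFb 1, 3 without HSF2oe TGFb 2, 1 without Mock TGFb 2 and 12 under library totals alone. HSPD1, the mitochondrial HSP60, had 442 and 421 CPM in HSF2oe TGFb, against 308 and 303 CPM in Mock TGFb cells, and rose by 0.50 ± 0.09 (adjusted p = 0.00226). HSPE1, its partner, rose by 0.53 ± 0.11, a call lost without Mock TGFb 2 (adjusted p = 0.0655). CCT2, a subunit of the cytosolic chaperonin, rose by 0.39 ± 0.09, a call lost without HSF2oe TGFb 1 (adjusted p = 0.0542) or without Mock TGFb 2 (adjusted p = 0.0666).

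The DNAJ family, which hands substrates to HSP70, had 5 rises and 3 falls among 38 measured members (median 0.08), with 2 rises without HSF2oe TGFb 1, 3 without HSF2oe TGFb 2 and 2 without Mock TGFb 2. No DNAJ gene fell without HSF2oe TGFb 1 or Mock TGFb 2. With the replicate block 9 rose and 7 fell, and under library totals alone 15 rose and 1 fell. DNAJB4 had 47.4 and 49.2 CPM in HSF2oe TGFb and 25.6 and 33.6 CPM in Mock TGFb cells and rose by 0.70 ± 0.12 (adjusted p = 0.00163). DNAJC9, a histone chaperone, rose by 0.65 ± 0.14, which was lost without Mock TGFb 2 (adjusted p = 0.0608), and DNAJA1, a farnesylated cochaperone, by 0.41 ± 0.10, which was lost without HSF2oe TGFb 1 (adjusted p = 0.0503). Small heat shock proteins had 3 falls and no rise among 6 measured members, or 1 fall without HSF2oe TGFb 1, without Mock TGFb 2 or under library totals alone. HSPB7, known from heart and muscle, fell to 9.74 and 9.46 CPM in HSF2oe TGFb cells, against 16.1 and 18.4 CPM in Mock TGFb cells (log2 -0.85 ± 0.14). HSPB1, or HSP27, changed by -0.40 ± 0.13, and this call was lost under library totals alone, with only the 4 libraries compared, without HSF2oe TGFb 1, without Mock TGFb 1, without Mock TGFb 2, without Mock control 1 or without Mock control 2 (adjusted p = 0.052 to 0.332). CRYAB, the lens chaperone αB-crystallin, changed by -0.53 ± 0.17, and this call was lost under library totals alone, without HSF2oe TGFb 1, without HSF2oe TGFb 2, without Mock TGFb 1 or without Mock TGFb 2 (adjusted p = 0.0968 to 0.153). Of 32 proteasome subunits 2 rose, or 9 under library totals alone. PSMD2, a scaffold of the proteasome's regulatory particle, had 1322 and 1289.9 CPM in HSF2oe TGFb and 858 and 847 CPM in Mock TGFb cells (log2 0.62 ± 0.10, adjusted p = 8.23e-04), and PSMD12 of the same particle rose by 0.34 ± 0.10 (0.53 under library totals alone), a call lost without HSF2oe TGFb 1, without HSF2oe TGFb 2 or without Mock TGFb 1 (adjusted p = 0.0887 to 0.117).

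**Figure D2:**
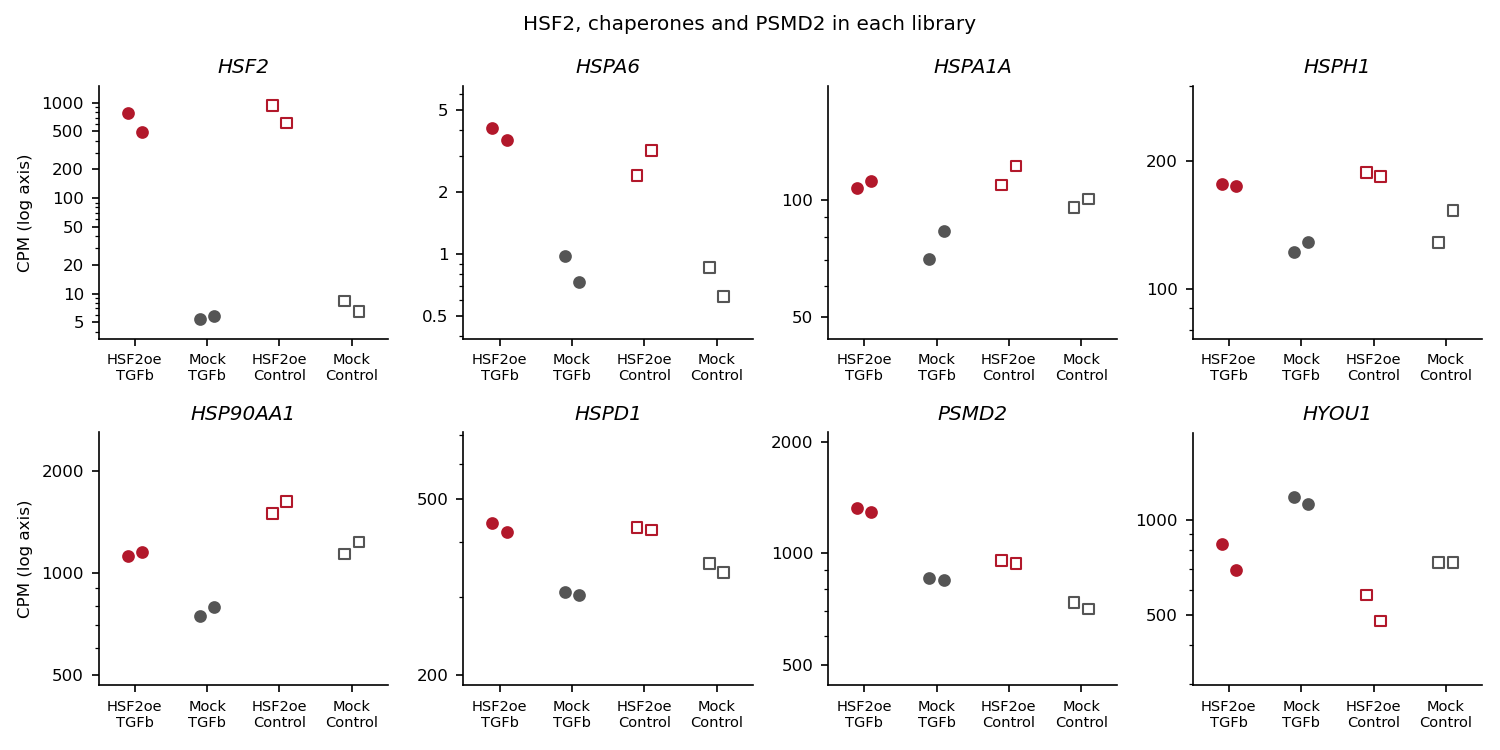
Normalised counts (CPM, log axis) of HSF2 and 7 chaperone or proteasome genes in each of the 8 libraries, grouped as HSF2oe TGFb, Mock TGFb, HSF2oe Control and Mock Control; each point is 1 library. HSF2 and HSPA6 separate the HSF2oe from the Mock libraries most widely, and HYOU1 lies lower in HSF2oe TGFb than in Mock TGFb cells.

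Because HSF2 binds heat shock elements, RefSeq promoter windows (GRCh38.p14, 250 bases before to 50 after a start site) were searched for a pair of inverted units, GAANNTTC or TTCNNGAA, which covers both strands. An array of 3 units was counted where the first form is followed by NNGAA, or the second by NNTTC, so that every array also holds 2 overlapping pairs. At least 1 window was found for 11105 of the genes tested, 16144 windows in all, and genes with several start sites give several windows. A pair was in 10.5% of all windows, in 11.5% of the windows of genes that rose and in 9.2% of those of genes that fell. An array of 3 units was in 0.347% of all windows, in 0.644% for rises and in 0.31% for falls. Within the chaperone lists, 7 of 20 genes that rose had a window with such an array, against 1 of 58 that did not pass the test and 0 of 8 that fell. By windows the shares were 26.9%, 1.2% and 0%. This split depends on calls that did not all hold. Among the 7 are HSPA8, CHORDC1, DNAJA1 and an HSP90 gene other than HSP90AA1, whose calls were lost when single libraries were left out. The call of that HSP90 gene was also lost with only the 4 libraries compared (adjusted p = 0.0689). SERPINH1, a heat-induced chaperone of collagen that stands in the collagen list instead, also had a window with 1 array, and it fell by 0.996 on the log2 scale. These are descriptions of letters in the windows. The windows of 3 chaperone genes that rose are shown because each holds such an array. HSPA6 lies on the plus strand of chr1:161524290-161524589, and HSPA8 and CHORDC1, an HSP90 cochaperone, on the minus strand of chr11:123062087-123062386 and chr11:90223000-90223299. All run 5′ to 3′, with the paired units and their spacers in capitals.
HSPA6: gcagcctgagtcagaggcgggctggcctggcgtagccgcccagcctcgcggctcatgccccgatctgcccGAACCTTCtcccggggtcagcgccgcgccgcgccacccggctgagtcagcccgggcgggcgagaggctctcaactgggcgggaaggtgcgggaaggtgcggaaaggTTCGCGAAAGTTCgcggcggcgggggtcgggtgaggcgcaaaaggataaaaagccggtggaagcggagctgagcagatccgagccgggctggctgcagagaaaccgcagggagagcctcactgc
HSPA8: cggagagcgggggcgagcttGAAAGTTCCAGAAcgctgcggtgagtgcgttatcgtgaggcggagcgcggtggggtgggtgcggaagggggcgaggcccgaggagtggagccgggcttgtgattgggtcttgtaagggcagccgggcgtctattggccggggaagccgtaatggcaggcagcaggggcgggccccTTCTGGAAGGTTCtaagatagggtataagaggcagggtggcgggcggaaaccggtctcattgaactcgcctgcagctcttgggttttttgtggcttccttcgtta
CHORDC1: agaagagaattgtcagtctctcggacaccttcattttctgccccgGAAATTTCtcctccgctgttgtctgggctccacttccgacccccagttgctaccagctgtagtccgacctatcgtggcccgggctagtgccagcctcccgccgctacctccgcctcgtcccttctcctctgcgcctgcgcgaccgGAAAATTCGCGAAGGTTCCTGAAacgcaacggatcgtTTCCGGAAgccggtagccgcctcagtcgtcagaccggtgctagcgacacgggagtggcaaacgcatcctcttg
HSPA6 held 1 array, starting at position -74 from the start site, and a lone pair at position -180. HSPA8 held 2 arrays, at -230 and -55. CHORDC1 held 3 overlapping arrays, starting at -60, -55 and -50, and lone pairs at -205 and -23. CHORDC1 had 41.1 and 41.8 CPM in HSF2oe TGFb and 33 and 32.8 CPM in Mock TGFb cells, a rise of 0.33 ± 0.10 (0.52 under library totals alone) that was lost without HSF2oe TGFb 1, without HSF2oe TGFb 2, without Mock TGFb 1 or without Mock TGFb 2 (adjusted p = 0.0685 to 0.114).

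The largest changes were sought among called protein-coding genes other than HSF2. By rule, the groups of such a gene did not overlap, and its log2 CPM averaged 1 or more over all 8 libraries. Genes below that level were not ranked, whatever the size of their change. The 10 largest rises were those of ESM1, BIRC3, IFIT1, MYB, CXCL8, FAM111B, CCNE2, HAS2, CDCA7 and DUSP4. ESM1 (ENSG00000164283.13, minus strand of chromosome 5 from 54977867 to 55022671), which encodes the secreted proteoglycan endocan, had 22.4 and 14.2 CPM in HSF2oe TGFb cells, against 1.95 and 0.984 CPM in Mock TGFb cells, a log2 rise of 3.69 ± 0.46 (adjusted p = 2.25e-04). BIRC3, an inhibitor of apoptosis induced by NF-kB, had 8.09 and 5.37 CPM against 0.977 and 0.394 CPM and rose by 3.37 ± 0.42. IFIT1, an interferon-induced RNA-binding protein, had 7.25 and 3.54 CPM against 0.846 and 0.443 CPM and rose by 3.13 ± 0.48. The HSF2oe libraries lay above the Mock libraries in every one of these genes, as the rule required. MYB, a proliferation-associated transcription factor, rose by 2.54 ± 0.28, and CXCL8, the neutrophil chemokine interleukin 8, by 2.32 ± 0.17. FAM111B, a protease, rose by 2.26 ± 0.20, CCNE2 (cyclin E2) by 2.26 ± 0.26, HAS2, which makes hyaluronan, by 1.93 ± 0.25, and CDCA7, a cell cycle gene, by 1.92 ± 0.32. CCNE2 shares 37.1% of its exonic bases with another gene. DUSP4, a phosphatase of MAP kinases, had 16.2 and 6.52 CPM in HSF2oe TGFb and 2.34 and 2.02 CPM in Mock TGFb cells. It rose by 2.41 ± 0.49, a call lost without Mock TGFb 2 (adjusted p = 0.0544), and by 1.59 without HSF2oe TGFb 1. All 10 genes were higher in HSF2oe TGFb 1, the library with more HSF2, than in HSF2oe TGFb 2. They were chosen for their large changes, and the share over all genes was not counted. With 2 libraries no relation to the HSF2 level could be tested.

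By the same rule the 10 largest falls were those of ACKR3, ZNF423, MFAP4, SFRP4, IL21R, CORO2B, PLXDC1, FABP3, PPP1R3G and TGFB3. ACKR3 (ENSG00000144476.6, plus strand of chromosome 2 from 236567787 to 236582354), a scavenging receptor for the chemokine CXCL12, fell to 0.467 and 0.981 CPM in HSF2oe TGFb cells, against 5.66 and 6.25 CPM in Mock TGFb cells (log2 -3.09 ± 0.45, adjusted p = 5.55e-04). ZNF423, a zinc finger transcription factor, fell to 0.778 and 0.81 CPM, against 6.25 and 6.64 CPM (log2 -3.02 ± 0.28). MFAP4, a microfibril protein, fell to 3.74 and 8.91 CPM, against 33.9 and 57 CPM (log2 -2.89 ± 0.38). The groups did not overlap in these genes, as the rule required, and MFAP4 varied within both. SFRP4, a secreted Wnt antagonist, changed by -2.77 ± 0.30, the interleukin 21 receptor gene IL21R by -2.75 ± 0.26, and CORO2B, an actin-binding coronin, by -2.52 ± 0.18. PLXDC1, a transmembrane protein of vessels, changed by -2.45 ± 0.37, the fatty acid binding protein FABP3 by -2.23 ± 0.32 and PPP1R3G, a regulatory subunit for glycogen metabolism, by -2.22 ± 0.43. IL21R shares 23.3% of its exonic bases with another gene. The ligand gene TGFB3 had 1.43 and 4.99 CPM in HSF2oe TGFb and 10.2 and 21.3 CPM in Mock TGFb cells, a log2 change of -2.36 ± 0.46 whose call was lost without Mock TGFb 2 (adjusted p = 0.0621). Of these 10 falls, 8 were lower in HSF2oe TGFb 1 than in HSF2oe TGFb 2, again without a share over all genes.

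**Figure D3:**
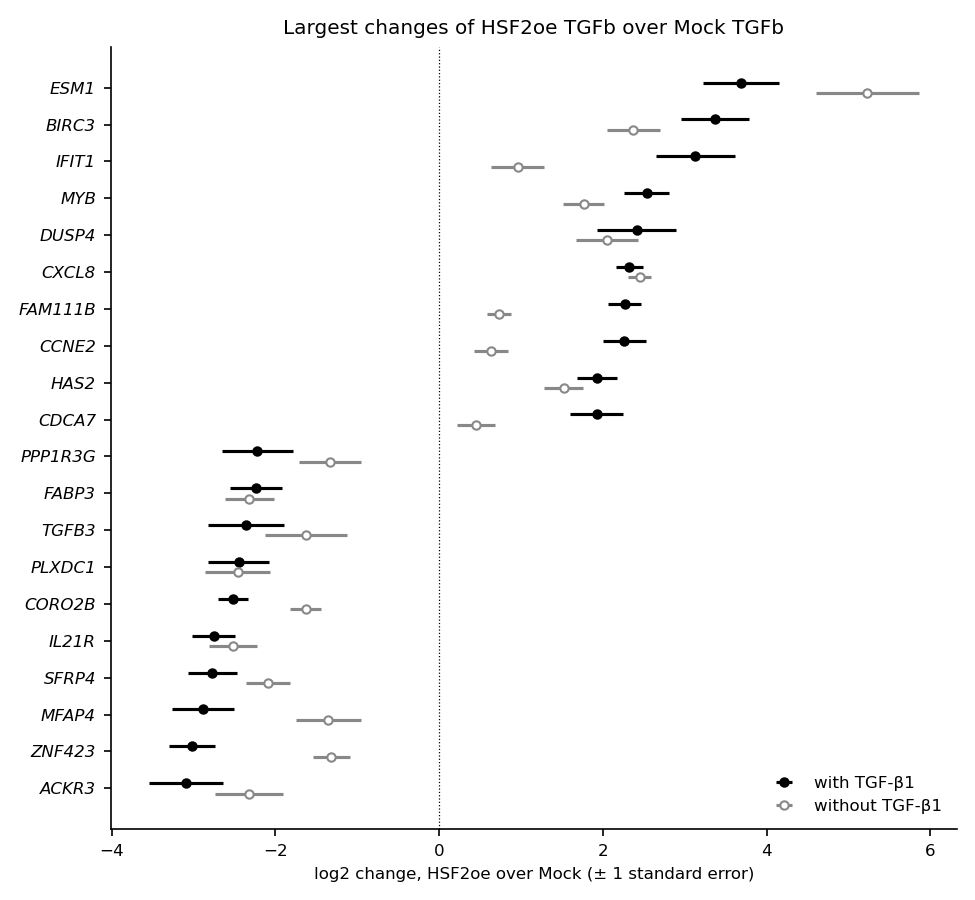
Log2 change of HSF2oe over Mock for the 10 largest rises and 10 largest falls in TGF-β1-treated cells, by the rule above (filled, HSF2oe TGFb over Mock TGFb) beside the same genes without TGF-β1 (open, HSF2oe Control over Mock Control); bars are ± 1 standard error. The genes were chosen on the filled values, which run from 3.69 for ESM1 to -3.09 for ACKR3.

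Of 37 measured cadherin superfamily and catenin genes 14 fell and none rose, with a median of -0.43, or 7 falls without Mock TGFb 2. PCDH7 (ENSG00000169851.15, plus strand of chromosome 4 from 30720415 to 31146805), a protocadherin, had 49 and 43.2 CPM in HSF2oe TGFb cells, against 114 and 116 CPM in Mock TGFb cells. Both HSF2oe libraries were below both Mock libraries (log2 -1.31 ± 0.10, adjusted p = 9.46e-06). The giant cadherin FAT4 changed by -1.20 ± 0.18, PCDH18 by -0.84 ± 0.11, and CLSTN3, a synaptic calsyntenin, by -0.999 ± 0.15. JUP, the catenin plakoglobin, changed by -0.88 ± 0.13 and CELSR1, a planar polarity cadherin, by -0.79 ± 0.12. CDH2, which encodes N-cadherin, had 1086 and 933 CPM in HSF2oe TGFb cells, against 1268 and 1315 CPM in Mock TGFb cells. Its log2 change of -0.36 ± 0.11 passed the test (adjusted p = 0.0301), a call lost under library totals alone, with only the 4 libraries compared, without HSF2oe TGFb 2, without Mock TGFb 1 or without Mock TGFb 2 (adjusted p = 0.0663 to 0.261). CDH1, E-cadherin, had 0.529 and 0.256 CPM in HSF2oe TGFb and 1.17 and 0.984 CPM in Mock TGFb cells, low throughout, and did not pass (log2 -1.40 ± 0.57, adjusted p = 0.101).

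Of 21 epithelial junction and keratin genes 6 fell and 1 rose, or 2 falls without HSF2oe TGFb 1, 3 without HSF2oe TGFb 2 and 3 without Mock TGFb 1. The balance was 2 falls and 3 rises under library totals alone. KRT16, a keratin of activated keratinocytes, fell to 3.55 and 5.2 CPM in HSF2oe TGFb cells, against 19.1 and 16 CPM in Mock TGFb cells (log2 -2.02 ± 0.21, adjusted p = 7.08e-05), and KRT17 to 387 and 395 CPM, against 647 and 595 CPM (log2 -0.67 ± 0.10). Transcription factors of epithelial to mesenchymal transition and mesenchymal genes split: 5 of 25 rose and 6 fell (median -0.14). Under library totals alone 8 rose and 3 fell (median 0.05). Without HSF2oe TGFb 1, 2 rose and 3 fell, and without Mock TGFb 2, 2 rose and 2 fell. SOX9, a transcription factor of progenitor cells, had 53.4 and 42.8 CPM in HSF2oe TGFb and 29.1 and 23.2 CPM in Mock TGFb cells and rose by 0.89 ± 0.13. SPARC, a collagen-binding matricellular protein, fell to 4578 and 5482 CPM, against 9804 and 11615 CPM (log2 -1.09 ± 0.16), and smooth muscle actin ACTA2 to 246 and 400.0 CPM, against 720.2 and 871 CPM (log2 -1.30 ± 0.24). ACTA2 shares 30.8% of its exonic bases with another gene. The repressor genes SNAI1 and SNAI2 differed by -0.77 ± 0.29 and -0.14 ± 0.12, and neither passed (adjusted p = 0.0797 and 0.446). VIM, the intermediate filament vimentin, differed by 0.22 ± 0.11 and FN1, fibronectin, by -0.40 ± 0.14, also without passing (adjusted p = 0.166 and 0.0541). VIM shares 24.3% of its exonic bases with another gene.

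Of the genes of the TGF-β pathway itself, 12 of 37 measured ligands, receptors, SMADs and regulators fell and 1 rose (median -0.21, or -0.02 under library totals alone, where 7 rose and 7 fell). The count of falls was 5 without Mock TGFb 2. LRRC32 (ENSG00000137507.11, minus strand of chromosome 11 from 76657524 to 76670747), the surface receptor GARP that holds latent TGF-β, had 19.95 and 21.3 CPM in HSF2oe TGFb cells, against 55.9 and 68.5 CPM in Mock TGFb cells (log2 -1.59 ± 0.12, adjusted p = 9.46e-06). LTBP3, a latent TGF-β binding protein, had 124 and 127 CPM against 213 and 239 CPM (log2 -0.85 ± 0.10), and LTBP4 changed by -0.62 ± 0.11. The type I receptor gene ACVR1 changed by -0.71 ± 0.11. SMURF2, a ubiquitin ligase that degrades SMADs and their receptors, was the one rise, with 91.2 and 71.6 CPM in HSF2oe TGFb and 45.7 and 40.8 CPM in Mock TGFb cells (log2 0.92 ± 0.14, adjusted p = 6.40e-04). The signal transducer SMAD3 and the receptor TGFBR2 differed by 0.08 ± 0.10 and 0.05 ± 0.12, and the inhibitor SMAD7 by 0.32 ± 0.14, none of which passed (adjusted p = 0.599, 0.807 and 0.115).

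Of 22 BMP, GDF and activin genes 10 fell and 3 rose, or 6 falls without HSF2oe TGFb 1, 4 falls and 1 rise without Mock TGFb 2, and 5 falls and 3 rises under library totals alone. INHBE, an activin subunit, fell to 30.9 and 60.6 CPM in HSF2oe TGFb cells, against 179.5 and 207 CPM in Mock TGFb cells (log2 -2.09 ± 0.28), with wide spread in the HSF2oe libraries. The growth factor GDF6 changed by -1.04 ± 0.11, BMP1, a protease that processes procollagen, by -0.73 ± 0.10 and FSTL3, which binds activin, by -0.67 ± 0.09. BMP2, a ligand of the BMP branch, rose by 1.28 ± 0.25, or by 0.83 without HSF2oe TGFb 1. Known TGF-β and SMAD target genes had 15 falls and 5 rises among 44 measured members (median -0.21, or -0.02 under library totals alone, where 12 fell and 8 rose), with 9 falls and 3 rises without Mock TGFb 2 and 3 rises without HSF2oe TGFb 1. ITGA11, a collagen-binding integrin of fibroblasts, had 538 and 569 CPM in HSF2oe TGFb, against 1271 and 1481 CPM in Mock TGFb cells (log2 -1.31 ± 0.12, adjusted p = 3.10e-05). TGFBI, an adhesive matrix protein, fell to 7446 and 7282 CPM, against 12459 and 14233 CPM (log2 -0.86 ± 0.14), and the metalloprotease ADAM12 changed by -0.91 ± 0.11. Other targets went the opposite way. EDN1, the vasoconstrictor endothelin, had 408 and 380.1 CPM in HSF2oe TGFb and 191 and 176 CPM in Mock TGFb cells, a rise of 1.10 ± 0.14 (adjusted p = 2.25e-04). IL11, a cytokine of the IL-6 family, rose by 0.68 ± 0.10 and HMGA2, a chromatin architectural protein, by 1.49 ± 0.24. CCN2, connective tissue growth factor, differed by 0.03 ± 0.15 and did not pass (adjusted p = 0.926).

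Collagens and the enzymes that fold and crosslink them were lower in HSF2oe TGFb cells, with 34 falls and 1 rise among 43 measured genes and a median of -0.65. The falls numbered 23 to 34 when single libraries were left out and 29 under library totals alone. COL3A1 (ENSG00000168542.16, plus strand of chromosome 2 from 188974373 to 189012746), a fibrillar collagen, had 2145 and 2526 CPM in HSF2oe TGFb cells, against 4723 and 6192 CPM in Mock TGFb cells. Each HSF2oe library was well below each Mock library (log2 -1.22 ± 0.17, adjusted p = 3.86e-04). COL1A1, the most abundant fibrillar collagen of connective tissue, had 20001 and 18562 CPM against 34607 and 36208 CPM (log2 -0.88 ± 0.12). COL5A1 changed by -0.95 ± 0.13, COL5A3 by -0.96 ± 0.12 and COL1A2 by -0.77 ± 0.14, and the short-chain collagen COL8A2 by -1.39 ± 0.18. SERPINH1, the collagen chaperone HSP47, fell to 1847 and 1923 CPM, against 3594 and 3927 CPM (log2 -0.996 ± 0.12, adjusted p = 1.42e-04). SERPINH1 is itself known to be induced by heat, and its direction was opposite to that of HSPA1A. ADAMTS2, the procollagen N-proteinase, changed by -0.88 ± 0.11, the lysyl oxidase LOXL1 by -0.92 ± 0.12 and the lysyl hydroxylase PLOD2 by -0.79 ± 0.14.

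Matrix glycoproteins and proteoglycans showed 29 falls and 3 rises among 49 measured genes (median -0.66), or 26 falls and 5 rises under library totals alone. SULF2, which trims heparan sulfate, fell to 0.84 and 1.66 CPM in HSF2oe TGFb cells, against 7.29 and 12.2 CPM in Mock TGFb cells (log2 -3.00 ± 0.36). MATN2, a matrilin, changed by -1.30 ± 0.15, the elastic fibre protein EMILIN2 by -0.91 ± 0.11, and the small leucine-rich proteoglycans LUM and DCN by -1.13 ± 0.20 and -1.11 ± 0.18. HSPG2, perlecan of basement membranes, changed by -0.92 ± 0.12 and FBN1, the microfibril protein fibrillin, by -0.70 ± 0.13. The rises were ESM1 and HAS2, given above, and SDC4, a cell surface proteoglycan, at 0.47 ± 0.11, a call lost without HSF2oe TGFb 1 (adjusted p = 0.12) or without Mock TGFb 2 (adjusted p = 0.0992). Matrix proteases and their inhibitors had 17 falls and 5 rises among 45 genes. These were 11 falls and 0 rises without HSF2oe TGFb 1, 10 falls and 0 rises without Mock TGFb 2, and 12 falls and 8 rises under library totals alone. ADAMTS10, which binds fibrillin, fell to 2.74 and 2.77 CPM, against 8.4 and 10.2 CPM (log2 -1.76 ± 0.22), the stromal protease MMP11 changed by -2.10 ± 0.31 and ADAMTS12 by -0.83 ± 0.10. MMP1, the interstitial collagenase, had 6.07 and 3.41 CPM in HSF2oe TGFb and 1.17 and 0.935 CPM in Mock TGFb cells, a rise of 2.19 ± 0.47 whose call was lost without HSF2oe TGFb 1 (adjusted p = 0.0715) or without Mock TGFb 2 (adjusted p = 0.0661).

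Of 28 integrin and laminin genes 10 fell and 3 rose, with 5 falls and 1 rise without Mock TGFb 2, 1 rise without HSF2oe TGFb 1 and 5 without HSF2oe TGFb 2, and 7 falls and 4 rises under library totals alone. ITGA1, a collagen receptor chain, fell to 29.2 and 29.5 CPM in HSF2oe TGFb cells, against 58.7 and 83.5 CPM in Mock TGFb cells (log2 -1.28 ± 0.15), and ITGAV, which activates latent TGF-β, changed by -0.82 ± 0.12. The laminin chains LAMB2 and LAMA4 changed by -0.82 ± 0.11 and -1.33 ± 0.25. The actin and contractile list had 22 falls and 5 rises among 50 genes, but 8 falls and 2 rises without HSF2oe TGFb 1, 9 falls and 1 rise without Mock TGFb 2, 3 rises without HSF2oe TGFb 2 and 11 falls and 7 rises under library totals alone. MYH10, a nonmuscle myosin, changed by -1.57 ± 0.25 and PDLIM7, an actin-associated adaptor, by -0.73 ± 0.10. RND3, a small GTPase that lowers contractility, had 246 and 205 CPM in HSF2oe TGFb and 119 and 127 CPM in Mock TGFb cells and rose by 0.88 ± 0.11 (adjusted p = 1.80e-04). YAP-TEAD targets had 6 rises and 3 falls among 26 genes (2 rises without HSF2oe TGFb 1, 3 rises and 1 fall without Mock TGFb 2, and 11 rises and 2 falls under library totals alone). GADD45A, a growth arrest and stress protein, rose by 1.04 ± 0.11 and AMOTL1, a junction protein of the Hippo pathway, by 0.55 ± 0.09, and ARHGEF17, a guanine nucleotide exchange factor, changed by -0.64 ± 0.11.

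Genes of DNA replication were higher in HSF2oe TGFb cells almost as a block. Of 51 measured G1-S and replication genes 43 rose and none fell, with a median of 0.82 against -0.003 over all genes, and 39 to 45 rose when single libraries were left out. GINS2 (ENSG00000131153.9, minus strand of chromosome 16 from 85676198 to 85690073), a subunit of the replicative helicase, had 32.2 and 30.7 CPM in HSF2oe TGFb cells, against 13.9 and 11.1 CPM in Mock TGFb cells. The HSF2oe libraries were close together and above both Mock libraries (log2 1.34 ± 0.14, adjusted p = 8.31e-05). UHRF1, which recruits DNA methylation to replicated DNA, had 91.7 and 86.8 CPM against 44.5 and 41.4 CPM (log2 1.06 ± 0.10), and FEN1, the flap endonuclease of lagging strands, 96.5 and 96.3 CPM against 50.5 and 46.6 CPM (log2 0.99 ± 0.10). CDT1, which loads the helicase, rose by 1.48 ± 0.21, the chromatin remodeler HELLS by 1.503 ± 0.17, RRM2 of ribonucleotide reductase by 1.24 ± 0.14, the sliding clamp PCNA by 0.93 ± 0.10 and the helicase subunit MCM3 by 0.83 ± 0.10. The regulators E2F1 and CCND1 (cyclin D1) rose by 1.05 ± 0.18 and 0.82 ± 0.10. CCNE1, cyclin E1, differed by 0.34 ± 0.16 and did not pass (adjusted p = 0.153).

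E2F factors control many of these genes and bind letters such as TTTGGCGC and TTTCCCGC, or GCGCCAAA and GCGGGAAA on the other strand. One of these 4 forms was in 3.3% of all promoter windows, in 6.09% of the windows of genes that rose and in 2.17% of those of genes that fell. It was in a window of 20 of the 42 G1-S and replication genes with a window, and of 4 of 43 G2-M genes. Over all genes tested it was in a window of 500 of 11105. By windows the shares were 35.7% for G1-S and replication genes and 7.55% for G2-M genes. This motif was added after the changes had been seen. The windows of GINS2 (minus strand, chr16:85688905-85689204) and MCM3 (minus strand, chr6:52284693-52284992) are shown as examples of replication genes that rose, 5′ to 3′, with the E2F letters in capitals.
GINS2: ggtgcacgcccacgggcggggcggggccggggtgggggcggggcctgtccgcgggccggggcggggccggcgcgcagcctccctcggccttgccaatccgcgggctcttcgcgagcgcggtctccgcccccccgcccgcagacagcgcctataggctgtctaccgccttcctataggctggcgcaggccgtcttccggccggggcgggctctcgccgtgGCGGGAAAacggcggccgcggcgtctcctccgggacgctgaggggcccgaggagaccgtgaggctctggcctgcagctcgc
MCM3: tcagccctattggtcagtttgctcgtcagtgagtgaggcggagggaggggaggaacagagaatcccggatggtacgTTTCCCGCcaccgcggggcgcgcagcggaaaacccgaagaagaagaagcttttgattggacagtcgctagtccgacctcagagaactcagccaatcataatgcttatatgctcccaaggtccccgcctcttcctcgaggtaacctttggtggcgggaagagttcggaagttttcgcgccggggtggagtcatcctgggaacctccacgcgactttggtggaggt
The match of GINS2 starts at position -31 from the start site and that of MCM3 at -174.

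Mitotic genes followed with smaller changes. Of 50 measured G2-M genes 39 rose and none fell (median 0.52), or 22 without Mock TGFb 2. NUF2, a kinetochore protein, had 39.1 and 36.6 CPM in HSF2oe TGFb cells, against 19.9 and 18.5 CPM in Mock TGFb cells (log2 0.98 ± 0.11, adjusted p = 9.13e-05). KIF11, the spindle motor, rose by 0.77 ± 0.10, the checkpoint kinase gene BUB1B by 0.73 ± 0.10 and CDK1, the mitotic kinase, by 0.71 ± 0.12. MKI67, the proliferation marker Ki-67, had 308 and 410.2 CPM in HSF2oe TGFb and 247 and 291 CPM in Mock TGFb cells, and TOP2A, a topoisomerase of mitosis, 217 and 235 CPM against 177 and 191 CPM. The groups of both genes were separate, but their log2 differences of 0.42 ± 0.15 and 0.30 ± 0.10 did not pass (adjusted p = 0.062 and 0.0562). Inhibitors of cyclin-dependent kinases and p53 targets did not move one way: 7 of 34 rose and 8 fell. Without HSF2oe TGFb 1, 4 rose and 2 fell, without Mock TGFb 1, 5 fell, and without Mock TGFb 2, 3 rose and 3 fell. Scaling by library totals alone gave 10 rises and 6 falls. CDKN1A, which encodes p21, rose by 0.55 ± 0.12, a call lost without HSF2oe TGFb 1 (adjusted p = 0.0618) or without Mock TGFb 2 (adjusted p = 0.0605). SESN2, a stress-induced inhibitor of mTORC1, changed by -0.80 ± 0.11, AEN, a nuclease of apoptosis, by 0.79 ± 0.14, and PMAIP1, the p53 target NOXA, by 0.85 ± 0.17.

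**Figure D4:**
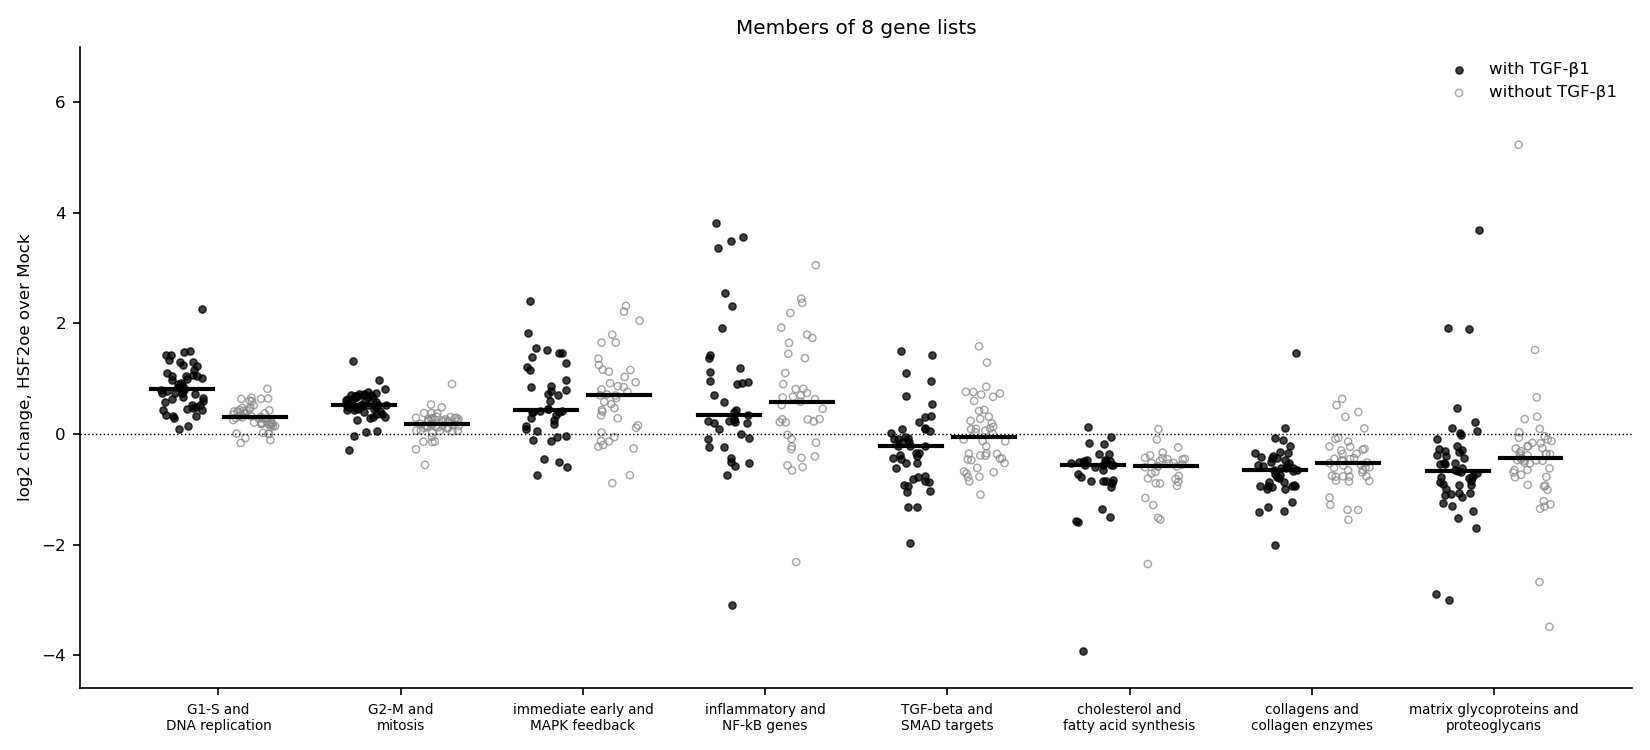
Log2 change of HSF2oe over Mock of every measured member of 8 gene lists, with TGF-β1 (filled) and without (open); each point is 1 gene and each black line the list's median. With TGF-β1 the medians run from 0.82 for G1-S genes to -0.66 for matrix glycoproteins, and the dotted line marks no change.

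Of 40 immediate early and MAP kinase feedback genes 20 rose and 1 fell (median 0.44), or 13 rises without Mock TGFb 2. MAFF, a small MAF transcription factor, had 95.1 and 70.0 CPM in HSF2oe TGFb cells, against 31.2 and 26.4 CPM in Mock TGFb cells (log2 1.53 ± 0.15, adjusted p = 6.52e-05). EGR1, a zinc finger early gene, had 76.5 and 43.4 CPM against 12.8 and 20.8 CPM (log2 1.82 ± 0.31) and FOSL1, an AP-1 subunit, 235 and 181 CPM against 89.9 and 61.5 CPM (log2 1.46 ± 0.19). The groups did not overlap, and the first HSF2oe library was the higher one in all 3. PHLDA1 rose by 1.15 ± 0.14 and MYC by 0.85 ± 0.12, and the feedback inhibitors of MAP kinase signalling DUSP6, SPRY4 and DUSP5 rose by 1.40 ± 0.27, 1.28 ± 0.21 and 1.20 ± 0.21, with DUSP6 at 0.88 without HSF2oe TGFb 1. Of 39 inflammatory and NF-kB genes 16 rose and 3 fell (median 0.34), or 10 rises without Mock TGFb 2 and 5 falls with the replicate block or no low-count filter. CXCL8 (ENSG00000169429.11, plus strand of chromosome 4 from 73740541 to 73743716) had 31.8 and 23.3 CPM in HSF2oe TGFb cells, against 5.99 and 5.12 CPM in Mock TGFb cells (adjusted p = 8.38e-06), and TNFAIP3, the NF-kB inhibitor A20, 49.3 and 37.9 CPM against 18.9 and 13.7 CPM (log2 1.43 ± 0.17). The cytokine genes IL6 and IL1B rose by 0.95 ± 0.13 and 1.19 ± 0.18, PTGS2, which makes prostaglandins, by 1.38 ± 0.26, and RELB, an NF-kB subunit, by 0.92 ± 0.15. The macrophage growth factor CSF1 changed by -0.51 ± 0.10, or -0.32 under library totals alone.

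Interferon-stimulated genes moved in both directions. Of 51 measured, 15 rose and 9 fell (median 0.39). That median ran from 0.09, without HSF2oe TGFb 1, to 0.43 when single libraries were left out. It was 0.06 over the 31 members at 1 CPM or more in every library, and 0.58 under library totals alone. The rises were 4 without HSF2oe TGFb 1, 8 without Mock TGFb 1, 5 without Mock TGFb 2, and 6 with a filter that keeps only genes at 1 CPM or more in every library. The falls were 5 without HSF2oe TGFb 2 and 4 without Mock TGFb 2, and 18 rose and 5 fell under library totals alone. Besides IFIT1, the antiviral GTPase MX1 rose by 2.53 ± 0.42 and OAS1, which senses double-stranded RNA, by 3.54 ± 0.64. OAS1 had 1.99 and 1.32 CPM in HSF2oe TGFb and 0.0651 and 0.197 CPM in Mock TGFb cells, near the detection floor in the Mock libraries, so the size of its change is uncertain. Falls included LGALS3BP, a secreted glycoprotein, at 128 and 114 CPM in HSF2oe TGFb cells, against 223 and 224 CPM in Mock TGFb cells (log2 -0.89 ± 0.10, adjusted p = 1.26e-04), and the guanylate-binding protein GBP1 (log2 -0.73 ± 0.12). The interferon response element GAAANNGAAA, or TTTCNNTTTC on the other strand, was in a window of 28 of the 40 listed genes with a window. By windows it was in 61.1% of those of the listed genes and in 2.9% of all windows. The share of windows was 3.75% for genes that rose and 3.32% for genes that fell. Of the listed genes named here as rises, IFIT1 had 2 matches, MX1 at most 1 in a window and OAS1 0. The falls LGALS3BP and GBP1 had 1 each. This element too was added after the changes had been seen. The window of IFIT1 (plus strand, chr10:89392373-89392672), one of the 10 rises named above, is shown 5′ to 3′ with its 2 matches in capitals.
IFIT1: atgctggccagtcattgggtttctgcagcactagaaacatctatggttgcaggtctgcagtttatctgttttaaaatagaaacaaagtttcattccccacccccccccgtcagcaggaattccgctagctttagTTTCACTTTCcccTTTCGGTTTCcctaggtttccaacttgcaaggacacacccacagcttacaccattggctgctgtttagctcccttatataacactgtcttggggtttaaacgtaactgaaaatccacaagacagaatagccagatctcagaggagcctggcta
They start at positions -116 and -103. Of the genes of antigen presentation, also induced by interferon, 12 of 20 measured fell and none rose (median -0.55, 8 to 12 falls when single libraries were left out). TAPBP, which loads peptides on class I molecules, fell to 183 and 194 CPM in HSF2oe TGFb cells, against 297 and 313 CPM in Mock TGFb cells (log2 -0.69 ± 0.10, adjusted p = 5.17e-04). The peptide transporter TAP1 changed by -0.64 ± 0.09, the immunoproteasome subunit PSMB9 by -1.41 ± 0.23, and HLA-B and HLA-C of class I by -0.51 ± 0.10 and -0.57 ± 0.11 (-0.31 and -0.38 under library totals alone). B2M, their light chain, differed by -0.34 ± 0.19 and did not pass (adjusted p = 0.235).

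Enzymes of cholesterol and fatty acid synthesis fell widely, 28 of 33 with none rising (median -0.56), or 17 without Mock TGFb 2. Under library totals alone 20 fell and 1 rose (median -0.37). FADS2, a fatty acid desaturase, fell to 101 and 132 CPM in HSF2oe TGFb cells, against 306 and 352 CPM in Mock TGFb cells (log2 -1.498 ± 0.18), and HMGCS1, an early enzyme of the sterol pathway, to 351 and 449.6 CPM, against 658 and 705 CPM (log2 -0.77 ± 0.15). HMGCS1 shares 37.7% of its exonic bases with another gene. The sterol reductase TM7SF2 changed by -1.60 ± 0.21, the stearoyl-CoA desaturase SCD by -1.57 ± 0.33, fatty acid synthase FASN by -0.96 ± 0.14, and SREBF1 and SREBF2, the factors that control the pathway, by -1.36 ± 0.18 and -0.64 ± 0.12.

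Genes of the unfolded protein response and of amino acid stress had 22 falls and 4 rises among 38 genes (median -0.42). The falls were 13 without HSF2oe TGFb 2, 10 without Mock TGFb 2 and 12 under library totals alone (with 4 rises), and 2 rises were found without HSF2oe TGFb 1 or Mock TGFb 2. VLDLR (ENSG00000147852.17, plus strand of chromosome 9 from 2621182 to 2660056), a lipoprotein receptor induced in this response, had 16.8 and 20.9 CPM in HSF2oe TGFb cells, against 68.7 and 63 CPM in Mock TGFb cells (log2 -1.81 ± 0.14, adjusted p = 9.64e-06). TRIB3, a pseudokinase, had 62 and 76.9 CPM against 148 and 144 CPM (log2 -1.07 ± 0.13), and PHGDH, the entry enzyme of serine synthesis, 204 and 244 CPM against 423 and 412 CPM (log2 -0.90 ± 0.12). All 3 were lower in both HSF2oe libraries. The mTORC1 inhibitor DDIT4 changed by -1.91 ± 0.26, the glutathione-degrading enzyme CHAC1 by -1.02 ± 0.15 and PSAT1 of serine synthesis by -0.81 ± 0.15. Members that rose were the early response factor ATF3, at 1.56 ± 0.26, and PPP1R15A, a phosphatase subunit that restores translation, at 1.05 ± 0.14.

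Of 36 growth factor and receptor genes 12 fell and 4 rose, or 1 rise without HSF2oe TGFb 1 or Mock TGFb 2, and 10 falls and 7 rises under library totals alone. PDGFRB (ENSG00000113721.14, minus strand of chromosome 5 from 150113839 to 150155872), the PDGF receptor of mesenchymal cells, had 138 and 168 CPM in HSF2oe TGFb cells, against 451 and 553 CPM in Mock TGFb cells (log2 -1.71 ± 0.15, adjusted p = 2.35e-05). Its relative PDGFRA and the EGF receptor EGFR differed by 0.17 ± 0.18 and 0.29 ± 0.15 and did not pass (adjusted p = 0.552 and 0.172). IGFBP4, which binds insulin-like growth factors, changed by -0.99 ± 0.14, and the mitogen FGF5 rose by 1.63 ± 0.20. Of 46 Notch and Wnt genes 17 fell and 4 rose (median -0.41), or 9 falls and 1 rise without Mock TGFb 2 and 1 rise without HSF2oe TGFb 1, and 12 falls and 7 rises under library totals alone. NOTCH3, a Notch receptor of mural cells, fell to 49.1 and 52.3 CPM, against 146 and 204 CPM (log2 -1.79 ± 0.15, adjusted p = 2.19e-05). The Wnt coreceptor LRP5 changed by -0.76 ± 0.09, the ligand WNT11 by -1.26 ± 0.17 and SFRP2, a Wnt antagonist, by -1.83 ± 0.26, while DKK1, another antagonist, rose by 1.27 ± 0.23. The Notch target HES1 and ligand JAG1 differed by 0.24 ± 0.12 and -0.19 ± 0.12 without passing (adjusted p = 0.161 and 0.29). Axon guidance genes, which also steer migrating cells, had 24 falls and 3 rises among 49 (median -0.52, 17 to 24 falls when single libraries were left out, and 18 falls and 6 rises under library totals alone). The netrin receptor UNC5B fell to 35.6 and 45.7 CPM in HSF2oe TGFb cells, against 118 and 156 CPM in Mock TGFb cells (log2 -1.76 ± 0.16), the repellent SLIT3 changed by -1.17 ± 0.12, the ephrin receptor EPHB3 by -1.15 ± 0.13, the plexin PLXNA2 by -1.41 ± 0.19 and the netrin receptor NEO1 by -1.34 ± 0.18. The attractant NTN1 rose by 0.85 ± 0.16.

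The next genes stood outside the lists and were chosen for their small p after their values were seen. PTGIS, which makes prostacyclin, fell to 27.2 and 25.5 CPM in HSF2oe TGFb cells, against 95.9 and 108 CPM in Mock TGFb cells (log2 -1.95 ± 0.11, adjusted p = 1.15e-06), the smallest p after HSF2. TXNIP, which inhibits thioredoxin and glucose uptake, had 51.7 and 46.8 CPM against 15 and 17 CPM and rose by 1.61 ± 0.11 (adjusted p = 8.38e-06). CEMIP, a hyaluronan-binding protein, had 685 and 630.3 CPM against 2001 and 2113 CPM (log2 -1.65 ± 0.12), and CRISPLD2, a secreted protein, changed by -1.43 ± 0.10. HAS2 and CEMIP, which make and degrade hyaluronan, thus moved in opposite directions.

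None of 67 ribosomal protein genes and none of 54 nuclear genes of oxidative phosphorylation passed (medians 0.04 and -0.02), with 1 and 5 of them at an unadjusted p below 0.05 by edgeR, 0 and 0 called by DESeq2 and 0 and 1 by limma-trend. Their smallest p belonged to RPL22 (log2 0.31 ± 0.11, adjusted p = 0.0634) and NDUFA5, a complex I subunit (log2 0.35 ± 0.12, adjusted p = 0.0513). Under library totals alone 12 ribosomal and 6 oxidative phosphorylation genes rose. Of 13 mitochondrially encoded genes MT-ND6 and MT-ND5 fell. MT-ND6 changed by -0.62 ± 0.17, or -0.96 without HSF2oe TGFb 1, a call lost without HSF2oe TGFb 2, without Mock TGFb 1 or without Mock TGFb 2 (adjusted p = 0.0751 to 0.133). MT-ND5 changed by -0.53 ± 0.17, or -0.89 without HSF2oe TGFb 1, a call lost under library totals alone, under the stricter filter, by limma-trend, with only the 4 libraries compared, without HSF2oe TGFb 2, without Mock TGFb 1, without Mock TGFb 2, without HSF2oe control 1, without HSF2oe control 2, without Mock control 1 or without Mock control 2 (adjusted p = 0.0503 to 0.295). Without HSF2oe TGFb 1, which held the larger mitochondrial share of its group, 11 of the 13 fell. NRF2 targets and metallothioneins had 4 rises and 4 falls among 28 genes, or 1 rise without HSF2oe TGFb 1 or Mock TGFb 2. Under library totals alone 8 rose and 3 fell, and 9 fell with the replicate block. MT2A, a metal-binding metallothionein, had 583 and 509 CPM in HSF2oe TGFb and 267 and 176 CPM in Mock TGFb cells and rose by 1.30 ± 0.19, while AKR1C3, a steroid reductase, changed by -1.47 ± 0.20. Glycolysis and hypoxia genes had 11 falls among 37 (median -0.21), or 4 without HSF2oe TGFb 1, 6 without Mock TGFb 1, and 4 without Mock TGFb 2. Under library totals alone 4 rose and 4 fell (median -0.02). EPAS1, the hypoxia factor HIF-2α, changed by -0.72 ± 0.12, and the hypoxia-induced genes ANKRD37 and NDRG1 by -1.16 ± 0.21 and -0.51 ± 0.10 (NDRG1 -0.32 under library totals alone).

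HSF2 is known from spermatogenesis, and of 10 measured meiosis and germ cell genes 2 rose and 1 fell. PSMC3IP, a recombination factor, rose by 1.28 ± 0.17 and shares 30.3% of its exonic bases with another gene. PIWIL2, which binds piRNAs in the germ line, had 0.685 and 0.639 CPM in HSF2oe TGFb and 0.13 and 0.0984 CPM in Mock TGFb cells and rose by 2.51 ± 0.78, a call lost without HSF2oe TGFb 1, without HSF2oe TGFb 2, without Mock TGFb 1 or without Mock TGFb 2 (adjusted p = 0.0689 to 0.187). The sperm-associated gene SPAG4 changed by -1.86 ± 0.31. The S100 list of 10 measured genes had a single call, a fall of S100PBP, which encodes a protein that binds S100P and is not an S100 protein itself. That call was lost under library totals alone, without HSF2oe TGFb 1 or without Mock TGFb 2 (adjusted p = 0.102 to 0.113), and under library totals alone 2 members rose. Luminal breast markers had 5 falls and 1 rise among 8 genes, with 0 falls without HSF2oe TGFb 1, 3 without Mock TGFb 1, 2 without Mock TGFb 2 and 2 under library totals alone. The keratin KRT18 changed by -0.52 ± 0.11, which was lost under library totals alone (adjusted p = 0.053) or without HSF2oe TGFb 1 (adjusted p = 0.0629). GATA3, the luminal transcription factor, rose by 0.70 ± 0.15, a call lost without HSF2oe TGFb 1 (adjusted p = 0.0603) or without Mock TGFb 2 (adjusted p = 0.0581), and the mucin MUC1 changed by -0.90 ± 0.20, a call lost without HSF2oe TGFb 1 (adjusted p = 0.0651) or without Mock TGFb 2 (adjusted p = 0.112). Of 6 markers of blood, endothelial and muscle cells CD14 fell to 0.591 and 0.81 CPM, against 2.15 and 2.02 CPM, a call lost without HSF2oe TGFb 1, without Mock TGFb 1 or without Mock TGFb 2 (adjusted p = 0.0559 to 0.118). PTPRC, the leukocyte marker CD45, passed with counts of 0 in both HSF2oe TGFb libraries and 0.0651 and 0.443 CPM in the Mock TGFb libraries, a call lost with only the 4 libraries compared, without HSF2oe TGFb 1, without HSF2oe TGFb 2 or without Mock TGFb 2 (adjusted p = 0.0579 to 0.331).

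The same overexpression was measured without TGF-β1, in libraries that this comparison does not share. There 1937 of 16008 genes, or 12.1%, differed between HSF2oe Control and Mock Control cells. Of all genes tested, 4.88% rose (781) and 7.22% fell (1156) there. Genes called the same way in both settings numbered 1428, which is 41.4% of the calls with TGF-β1 and 73.7% of those without. The difference of the effects, tested for each gene, passed for 0% of the genes (0 of 16008 by edgeR's quasi-likelihood test, 977 at an unadjusted p below 0.05, 23 by DESeq2, 0 by limma-trend). The same edgeR test called 83 genes with no low-count filter and 78 with the replicate block, so the 0 depends on these settings. Counts that differ between the settings are described only. Of the G1-S and replication genes 43 rose with TGF-β1 (median 0.82), against 11 without it (median 0.30), and of the G2-M genes 39 (median 0.52), against 4 (median 0.18). Collagen genes had 34 falls with TGF-β1, against 27 without it, and cholesterol genes 28, against 27. Inflammatory genes had 16 rises with TGF-β1 (median 0.34), against 18 without it (median 0.58), and early response genes 20 (median 0.44), against 23 (median 0.70). The calls without TGF-β1 depended on single libraries too, with 353 genes called without HSF2oe Control 1 and 427 without Mock Control 2.

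The levels in all 4 groups follow for genes named above and for BMP6, picked after their values were seen. GINS2 had 32.2 and 30.7 CPM in HSF2oe TGFb, 13.9 and 11.1 CPM in Mock TGFb, 38.3 and 38.5 CPM in HSF2oe Control and 39.1 and 30.8 CPM in Mock Control cells. The Mock TGFb libraries were the low ones and the other groups overlapped or lay close together. The HSF2 effect on GINS2 was 1.34 ± 0.14 with TGF-β1 and 0.14 ± 0.13 without, a difference of 1.20 ± 0.19 that did not pass (adjusted p = 0.165). FAM111B had 12.8 and 9.76 CPM in HSF2oe TGFb, 2.47 and 2.26 CPM in Mock TGFb, 22.3 and 20.3 CPM in HSF2oe Control and 14.2 and 11.6 CPM in Mock Control cells, again lowest in Mock TGFb (difference 1.53 ± 0.26, adjusted p = 0.165). PTGIS had 27.2 and 25.5 CPM in HSF2oe TGFb, 95.9 and 108 CPM in Mock TGFb, 78 and 68.2 CPM in HSF2oe Control and 155 and 145 CPM in Mock Control cells, lowest in HSF2oe TGFb (difference -0.92 ± 0.15, adjusted p = 0.165). COL3A1 had 2075 and 2508 CPM in HSF2oe Control and 4374 and 5803 CPM in Mock Control cells, and its HSF2 effect without TGF-β1 was -1.15 ± 0.17. CXCL8 had 87.2 and 79.3 CPM in HSF2oe Control and 16.2 and 14.4 CPM in Mock Control cells, an effect of 2.45 ± 0.14 without TGF-β1 beside 2.32 ± 0.17 with it. BMP6, a bone morphogenetic protein, was the one gene called in opposite directions. It fell to 11.9 and 14.2 CPM in HSF2oe TGFb, against 19.3 and 19.6 CPM in Mock TGFb cells (log2 -0.58 ± 0.15, adjusted p = 0.0148), a call lost under library totals alone, without HSF2oe TGFb 1, without Mock TGFb 1 or without Mock TGFb 2 (adjusted p = 0.0592 to 0.153), and rose to 0.899 and 0.713 CPM in HSF2oe Control, against 0.15 and 0.142 CPM in Mock Control cells (log2 2.43 ± 0.39, adjusted p = 0.00208). The difference for BMP6 was -3.01 ± 0.41 and did not pass (adjusted p = 0.0873).

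**Figure D5:**
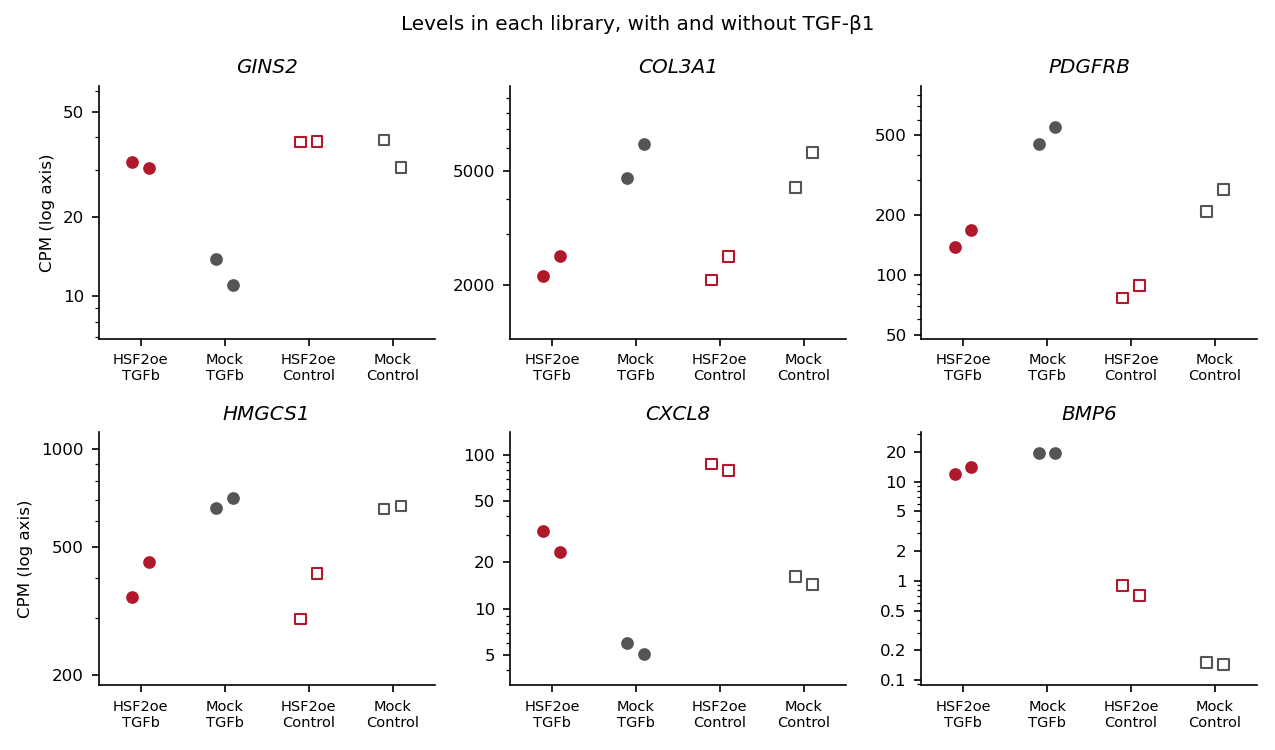
Normalised counts (CPM, log axis) of 6 genes in the 8 libraries, in the order HSF2oe TGFb, Mock TGFb, HSF2oe Control, Mock Control; each point is 1 library. GINS2 is lowest in the 2 Mock TGFb libraries, while COL3A1, PDGFRB and HMGCS1 are lower and CXCL8 is higher in HSF2oe than in Mock libraries with and without TGF-β1. BMP6 is lower in HSF2oe than in Mock libraries with TGF-β1, and higher in HSF2oe than in Mock libraries without it.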

How the data were processed

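Total RNA of HS578T cells was sequenced as poly(A) RNA with a stranded kit, per the labels' protocols. The authors deposited counts per gene, made with featureCounts 2.0.1 on GENCODE 38 genes without a strand option, per the file headers, so sense and antisense genes that overlap share reads. Per the submitters' processing notes, STAR 2.7.9a, Subread 2.0.1, edgeR 3.34.1 and GRCh38 were used. A second deposited table holds log2 CPM for 13169 genes and served only as an alternative. Read multimapping settings are not given in the sources used here.

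Groups came from the titles. All 8 libraries were fitted with edgeR 4.0.16 (R 4.3.3) with 1 mean per group, TMM scaling, genes kept by edgeR's default expression filter, the 2-sided quasi-likelihood F test and Benjamini-Hochberg adjustment over 16008 genes, with a threshold of 0.05. CPM values are counts scaled to the TMM library size. Standard errors are the log2 change divided by the square root of F. The script was tested on simulated data. Alternatives used limma 3.58.1, DESeq2 1.42.0, other scalings and filters, a replicate block, only the libraries compared, and leaving out each library.

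Named genes were a fixed set of 12, the 10 largest rises and the 10 largest falls (protein-coding, mean log2 CPM of at least 1, groups not overlapping, HSF2 left out), up to 3 called members with the smallest p per list, or 1 where none was called, and genes called for the difference of the effects. Some genes that this rule or the lists name are not reported here. Further list members, PTGIS, TXNIP, CEMIP, CRISPLD2 and BMP6 were named after their values were seen, as was the choice of genes whose promoters are printed. The gene lists and the genes named were chosen with earlier results of these data known. Lists get counts and medians and no test of their own. Promoter windows come from RefSeq tables of GRCh38.p14, and gene positions from the count table.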

Additional observations from a re-analysis of the deposited data

Results flagged for a closer look

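BMP6, a bone morphogenetic protein, was called in opposite directions by edgeR's quasi-likelihood test with and without TGF-β1. It fell by 0.58 on the log2 scale in HSF2oe TGFb against Mock TGFb cells (adjusted p = 0.0148) and rose by 2.43 in HSF2oe Control against Mock Control cells (adjusted p = 0.00208). The difference of the effects was -3.01 ± 0.41 and missed the threshold (adjusted p = 0.0873), although that p was the smallest of all 16008 genes. Without TGF-β1 BMP6 was at 0.899 and 0.713 CPM in HSF2oe Control and at 0.15 and 0.142 CPM in Mock Control cells, so the rise there rests on few counts.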

How the results depend on the processing

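Of 218 genes named in the text, 197 were called, 165 of them kept direction and call under every alternative in which they were tested, and no called gene changed sign. With single libraries left out, calls for HSF2oe TGFb over Mock TGFb numbered 1483 to 3332 (610 to 1553 rises, 850 to 1792 falls), the lowest counts without Mock TGFb 2 and without HSF2oe TGFb 1. Calls without TGF-β1 numbered 353 to 2008 and the difference of the effects gave 0 throughout. Under library totals alone there were 3526 rises and 1073 falls. The difference of the effects passed for 83 genes with no low-count filter, 23 by DESeq2 and 78 with the replicate block. The replicate block gave 4900 calls with TGF-β1 and 3614 without. Libraries with the same number deviated together weakly (r = 0.0498 to 0.163 over genes, 0.0809 between HSF2oe TGFb and Mock TGFb), and the labels give the numbers no meaning, so they were not taken as pairs. In windows of 200 bases before to 50 after the start, the heat shock pair was in 9.37% of windows of genes that rose, 7.3% for genes that fell and 8.39% of all windows. An array of 3 units was then held by 6 of 20 genes of the chaperone lists that rose. It was held by 1 of 58 not called and 0 of 8 that fell. Genes that changed sign were all uncalled. HSF1 was 0.19 under library totals alone, 0.0174 with no filter, 0.0021 with 1 CPM in every library, 0.0047 with only the libraries compared, and -0.0499 to 0.0606 without single libraries. SNAI2 was 0.0501 under library totals alone. With single libraries left out, CCN2 ran from -0.0031 to 0.053, PDGFRA from -0.20 to 0.46 and TGFBR2 from -0.0575 to 0.20. The cause of these shifts was not tested. Below about 0.2 CPM a gene rests on fewer than 3 counts in the shallowest library, which limits statements on genes such as OAS1 and PIWIL2.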
